A study of Mus musculus with 12 samples.

Results

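The intact (contralateral) hemisphere of mice with inducible dickkopf-1 (DKK1) was compared with that of wild-type mice after stroke, with 3 libraries per genotype. These 6 libraries were chosen by their labels out of the 12 of the series, and the other 6 came from the lesioned (ipsilateral) hemispheres. The DKK1 mice carried 3 engineered loci: Gt(ROSA)26Sortm1.1(rtTA,EGFP)Nagy, which supplies the doxycycline-dependent activator rtTA and a green fluorescent protein, Hprttm1(tetO-Dkk1)Spdl, a Dkk1 gene under tetO control placed at Hprt, and Tg(TCF/Lef1-lacZ)34Efu, a reporter of Wnt signalling. The wild-type mice were C57BL6/J. Both genotypes had occlusion of the middle cerebral artery (MCAo) and received doxycycline at 200 mg/kg, with induction 3 days after MCAo and tissue taken 28 days after it. No group carried the engineered loci without doxycycline, so induced DKK1, the alleles themselves and any other DNA that differs between the strains cannot be told apart here. Whether each library is a separate animal is not stated in the labels, and p-values therefore measure the spread between libraries, which may be partly technical.

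DKK1 is a secreted protein that binds the Wnt co-receptors LRP5 and LRP6 and keeps Wnt ligands from stabilising beta-catenin. In the adult brain, Wnt/beta-catenin signalling is known for maintaining the blood-brain barrier in endothelial cells and for its part in synapses and in the birth of neurons. In the tetO system, rtTA bound to doxycycline switches on the gene behind the tetO elements. The contralateral hemisphere lies outside the territory of the occluded artery.

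Total counts were 21209920 to 26911840 per library, with 19557 to 19998 genes detected. Levels are in CPM, each library's counts over its total scaled by edgeR's TMM method, given for libraries 1, 2 and 3 of a group in that order, and differences are log2 fold changes ± standard error (n = 3 per genotype). On the first principal component of the 6 libraries (37.5% of the variance) the wild-type libraries lay at −44.2, −18.3 and −0.23 and the DKK1 libraries at 14.2, 25.1 and 23.4. Wild-type library 1 thus stood farthest out. It also had more counts of several immune genes, which are given beside the results they touch. Neurons and glia were well represented: the synaptic gene Snap25 stood at 846 to 1007 CPM, the myelin gene Mbp at 909 to 1125 CPM and the astrocyte transporter Slc1a2 at 1602 to 1956 CPM over the 6 libraries. The T cell genes Cd3e and Cd3d were at no more than 0.127 CPM in any of them.

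Dkk1 itself (chromosome 19, 30545885 to 30549496, mm10, minus strand) was read at very low depth on the intact side. The wild-type libraries held 0 counts each and the DKK1 libraries 13, 5 and 4. If the 3 wild-type libraries together are given 3 counts, the difference was at least 7.98-fold, higher in DKK1. That bound covers counting error only, and edgeR's test did not pass (adjusted p = 0.437), while DESeq2's did (adjusted p = 0.0271). The bound for this targeted gene rested in part on single libraries: it was 4.67-fold without DKK1 library 1 and 5.09-fold without wild-type library 1. On the lesioned side the DKK1 libraries held 32, 7 and 44 counts, and the wild-type libraries again 0. The labels were thus matched in all 6 intact libraries by the presence or absence of Dkk1 reads. Counts at Dkk1 can come from the transgene or from the resident gene, and the table does not separate them.

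Hprt encodes an enzyme that recycles purine bases, and the tetO-Dkk1 cassette sits in it (chromosome X, 52988078 to 53021660, plus strand). It had the smallest p of all genes. It stood at 75.1, 78.8 and 79.7 CPM in wild-type and at 17.2, 17.5 and 15.7 CPM in DKK1 libraries. Every wild-type library was far above every DKK1 library. Hprt fell by 2.21 ± 0.06 on the log2 scale (edgeR adjusted p = 5.9e-09). Its neighbours Phf6 (−0.11 ± 0.08), Fam122b (0.12 ± 0.09) and Mospd1 (0.03 ± 0.12) did not pass, and none of the other 607 genes tested on the X chromosome was called. Among 20 tested genes of purine salvage and synthesis, Hprt was the 1 that was called, beside 0.88% of all genes tested. The other salvage transferase, Aprt, stood at 19.5, 18.9 and 19.6 CPM against 15.6, 20.7 and 17.7 CPM. The transcript of the ROSA26 locus, which carries rtTA, stood at 14.7, 16.6 and 17.5 CPM in wild-type and 14.7, 14.4 and 11.7 CPM in DKK1 libraries and did not pass (−0.26 ± 0.12, adjusted p = 0.857).

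The 250 bases before the start of Hprt and of Dkk1 are shown because one locus carries the transgene and the other is the resident copy of the induced gene. They were taken from RefSeq (GRCm38.p6), at chrX:52987828-52988077 on the plus strand and chr19:30549497-30549746 on the minus strand, and are written 5′ to 3′. Capitals mark matches, on either strand, to the GC box core GGGCGG, the TATA box core TATAAA and the TCF/LEF core TCAAAG.
Hprt: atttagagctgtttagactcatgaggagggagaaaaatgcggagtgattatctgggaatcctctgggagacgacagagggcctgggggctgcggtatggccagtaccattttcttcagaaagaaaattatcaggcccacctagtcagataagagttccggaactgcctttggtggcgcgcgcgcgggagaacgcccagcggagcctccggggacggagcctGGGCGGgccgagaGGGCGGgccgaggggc
Dkk1: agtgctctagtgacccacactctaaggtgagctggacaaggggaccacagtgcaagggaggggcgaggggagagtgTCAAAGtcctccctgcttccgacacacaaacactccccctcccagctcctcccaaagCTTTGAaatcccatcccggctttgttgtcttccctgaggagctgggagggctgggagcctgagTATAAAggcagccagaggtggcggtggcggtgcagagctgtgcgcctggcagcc
The Hprt window held the GC box core 2 times and neither of the other cores. The Dkk1 window held 1 TATA box core and 2 TCF/LEF cores. These cores do not overlap one another in either window. Of 32536 distinct windows of the same length, 33.0% held the GC box core, 12.3% the TATA box core and 13.9% the TCF/LEF core. These are matches of letters, and the data at hand measure no binding.

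Across the genome few genes differed. Of 17612 genes tested, 155 passed (0.88%, edgeR adjusted p under 0.05), 65 of them higher in DKK1 mice (0.369%) and 90 lower (0.511%). For all 155 the 3 DKK1 libraries did not overlap the 3 wild-type libraries, as was the case for 2097 of all genes tested (11.9%). Of the called genes, 131 were protein-coding, 14 non-coding RNAs and 10 pseudogenes. The sizes were broad: 85 changed by more than 1 on the log2 scale and 32 by less than 0.5, with a median size of 1.10, while the median over all genes tested was −0.00161. Of the 155 calls, 87 were kept whichever 1 of the 6 libraries was left out. The count was 94 without DKK1 library 1, 99 without DKK1 library 2 and 100 without DKK1 library 3, against 104 to 197 without a wild-type library. At an unadjusted p under 0.05 there were 1071 genes, and DESeq2 called 267, all 155 among them. Some calls share reads: 4 pairs overlap on the same strand (Atp6v0c with Atp6v0c-ps2, Hmga1 with Hmga1b, Amd1 with Amd2 and Cers1 with Gdf1), so each pair may be 1 difference counted again. Amd1 and Amd2 kept their calls only when wild-type library 1 was the one left out.

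**Figure D1:**
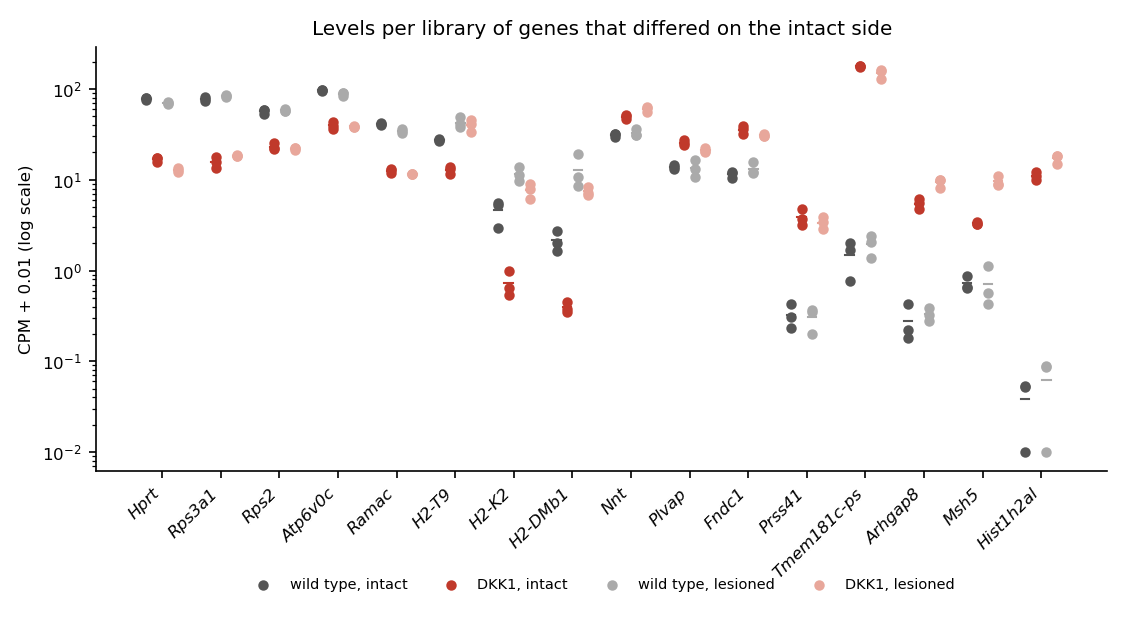
CPM plus 0.01 (log scale) of 16 genes in the 12 libraries, 3 points per group with a line at the mean, for wild type and DKK1 on the intact side and on the lesioned side. For Hprt, Rps3a1 and Ramac the DKK1 points of both sides lie below the wild-type points, and for Tmem181c-ps and Arhgap8 above them, while H2-T9 is apart on the intact side alone.

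Among the falls with the smallest p were single ribosomal protein genes, Rnps1, Ramac and Atp6v0c. The ribosomal protein gene Rps3a1 (chromosome 3) stood at 72.9, 78.5 and 81.0 CPM in wild-type and 17.7, 13.4 and 15.8 CPM in DKK1 libraries, and fell by 2.31 ± 0.09 (adjusted p = 2.46e-08). Rps2 and Rps18, both on chromosome 17, fell by 1.30 ± 0.07 and 1.52 ± 0.10, and Rpl3 (chromosome 15) by 0.34 ± 0.05, a call that was lost without wild-type library 2 or DKK1 library 2. They were 4 of 40 ribosomal protein genes tested, beside 0.88% of all genes called. The other 36 lay between −0.05 and 0.14, so the falls were of single genes and not of the group, whose median was 0.0752. Ribosomal protein genes have many processed copies in the genome, and reads shared with such copies make these levels uncertain. Rnps1, a splicing factor of the exon junction complex, stood at 71.2, 70.3 and 72.7 CPM against 27.8, 26.8 and 27.2 CPM (−1.39 ± 0.06, adjusted p = 5.38e-08). Ramac, the activating subunit of the enzyme that methylates the mRNA cap (chromosome 7), went from 40.4, 41.2 and 42.5 CPM to 12.8, 12.96 and 11.8 CPM (−1.73 ± 0.06). Atp6v0c, the proton channel subunit of the vacuolar ATPase, went from 93.8, 97.8 and 97.4 CPM to 39.4, 36.7 and 43.4 CPM (−1.27 ± 0.06). Its overlapping pseudogene Atp6v0c-ps2 fell by 1.64 ± 0.05. In Rps3a1, Rnps1, Ramac and Atp6v0c the 3 libraries of a genotype lay close together and the genotypes far apart. These genes were named for their small p, which favours such a pattern. Rpl3 was less far apart, at 148.7, 168.9 and 168.5 CPM in wild-type and 128.4, 125.3 and 131.2 CPM in DKK1 libraries.

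Other genes fell from lower levels. Prc1, which bundles the microtubules of the dividing cell, went from 4.50, 4.92 and 4.35 CPM to 0.735, 0.861 and 0.392 CPM (−2.78 ± 0.29, adjusted p = 0.000283). Guca1b, a calcium sensor of photoreceptors (chromosome 17, 47385393 to 47392967), had 122 counts over the wild-type and 0 over the DKK1 libraries, which makes it at least 37.4-fold lower. The non-coding RNA AA388235 went from 6.04, 6.63 and 7.39 CPM to 0.245, 0.041 and 0.0436 CPM (−5.94 ± 0.40). The adhesion receptor Adgrf4 fell by 1.95 ± 0.23 and the glycosyltransferase gene B3gnt3 by 1.79 ± 0.24. None of the DKK1 libraries reached a wild-type library in any of them, which the rule for naming them required.

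Several of the largest rises were of transcripts hardly read in wild-type libraries. The pseudogene Tmem181c-ps (chromosome 17, 6610103 to 6620925) stood at 0.75, 1.67 and 1.98 CPM in wild-type and at 177, 178 and 177 CPM in DKK1 libraries (6.93 ± 0.22, adjusted p = 1.4e-08). Its close relative Tmem181a, in turn, went from 80.1, 82.7 and 78.1 CPM to 42.4, 42.3 and 42.5 CPM (−0.92 ± 0.06). Tmem181b-ps, the third of these copies, rose by 0.68 ± 0.08. Reads can move between near-identical copies in counting, so the split among the 3 is uncertain. Hist1h2al, a histone gene annotated as a pseudogene, had 2 counts over the wild-type and 747 over the DKK1 libraries. That is a ratio of 406 with an exact 95% interval of 112 to 3360. The non-coding RNA Eyelinc18 stood at 0.0375, 0.171 and 0.127 CPM against 14.3, 15.5 and 16.3 CPM (7.08 ± 0.33). Arhgap8, a GTPase-activating protein (chromosome 15), went from 0.413, 0.171 and 0.211 CPM to 4.70, 6.11 and 5.49 CPM (4.31 ± 0.27). Serpina3h, of the serpin family and annotated as a pseudogene, stood at 0.075, 0.128 and 0 CPM against 1.13, 6.52 and 4.36 CPM (5.79 ± 0.84). It spread widely among the DKK1 libraries, and limma-voom did not call it. Between the genotypes these transcripts did not overlap, as was so for every called gene.

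On chromosome 17, 3 neighbouring serine protease genes rose together. Prss41 went from 0.225, 0.299 and 0.422 CPM to 3.14, 3.65 and 4.8 CPM (3.60 ± 0.30, adjusted p = 4.3e-05), Prss33 rose by 3.97 ± 0.46 and Prss32 by 2.89 ± 0.50. They lie within chr17:23833361-23859776. Prss32 lost its call when wild-type library 1 or any 1 of the DKK1 libraries was left out. Other genes on this chromosome also rose at low levels. Among them were the formyl peptide receptor Fpr2, from 0.525, 0.556 and 0.253 CPM to 2.16, 2.62 and 2.22 CPM (2.38 ± 0.29), the chemokine receptor Ccr6 (2.17 ± 0.37) and the cytokine lymphotoxin alpha, Lta (2.40 ± 0.41). Ccr6 lost its call without DKK1 library 1 or 3, and Lta without DKK1 library 1 or 2 or wild-type library 2 or 3. Also higher on chromosome 17 were Msh5, a meiotic recombination gene (2.20 ± 0.29), Rnf151, a ring finger gene (3.47 ± 0.47), and Fndc1, from 11.9, 10.5 and 12.3 CPM to 31.5, 38.7 and 36.1 CPM (1.62 ± 0.12). On other chromosomes, Rbm46 (chromosome 3), an RNA-binding protein of germ cells, rose by 2.25 ± 0.25. Myh8 (chromosome 11), a myosin of developing muscle, went from 0.30, 0.214 and 0.422 CPM to 2.11, 2.75 and 2.14 CPM (2.88 ± 0.32). It was the 1 of 16 tested skeletal muscle genes that passed, beside 0.88% of all genes called.

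The called genes were unevenly spread over the chromosomes. Chromosome 17 held 65 of them, 7.36% of its 883 genes tested and 41.9% of all calls, though 5.01% of the genes tested lie there. All 65 lay in its first 60 Mb, which held 741 tested genes, and none of the 142 beyond was called. The share called was 20.9% from 0 to 10 Mb (9 of 43), 6.67% from 10 to 20 Mb (4 of 60), 9.13% from 20 to 30 Mb (21 of 230), 9.82% from 30 to 40 Mb (22 of 224) and 7.62% from 40 to 50 Mb (8 of 105). From 50 to 60 Mb it was 1.27% (1 of 79). Both directions were found there, with 29 genes higher and 36 lower. Chromosomes 3, 8 and 12 held 17, 17 and 16 called genes. With chromosome 17 they held 115 (74.2%) of the calls and 18.7% of the genes tested. On chromosomes 2, 4, 14, 19 and Y there were none. The position of a gene was not used in any test, so these shares are a description.

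**Figure D2:**
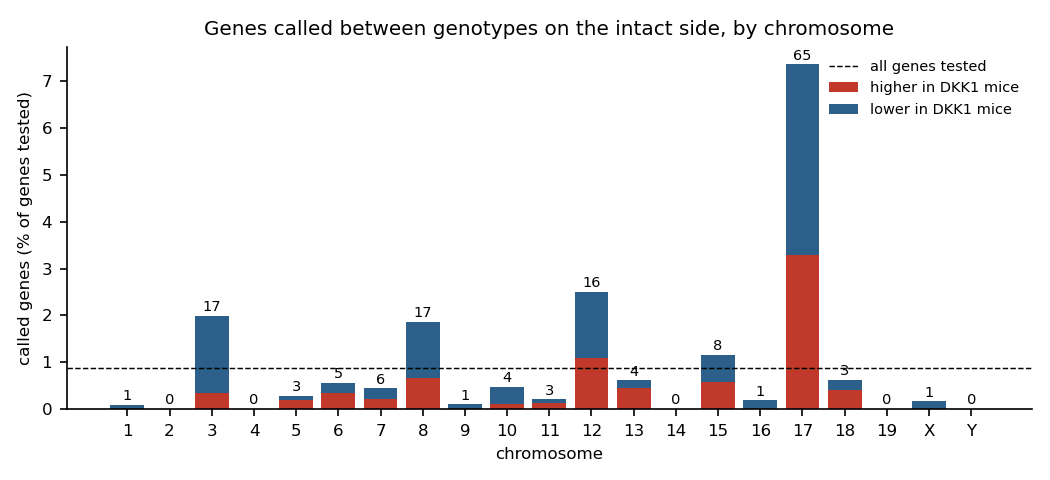
Called genes as a percentage of the genes tested on each chromosome, in red those higher and in blue those lower in DKK1 mice, with the number of called genes above each bar and a dashed line at the share over all genes tested (0.88%). Chromosome 17 reaches 7.36%, and chromosomes 2, 4, 14, 19 and Y have no called gene.

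In 10 Mb windows the same unevenness was seen, though its extent depends on the limits chosen. With at least 5 called genes making up at least 10% of those tested, 2 windows of 275 qualified: chromosome 17 from 0 to 10 Mb and chromosome 3 from 30 to 40 Mb. They held 15 called genes (9.68% of calls), which leaves 140 outside. With a minimum of 8 called genes the share was 5.81%, with 20 Mb windows 8.39% and with 5 Mb windows 31.6%, and with a minimum of 5% called genes, a limit added after the values were seen, it was 61.9% in 9 windows that held 5.98% of the genes tested. In the chromosome 3 window Exosc9, a core subunit of the RNA exosome, went from 28.3, 29.9 and 30.0 CPM to 18.5, 19.2 and 16.6 CPM (−0.70 ± 0.11). Mccc1, of leucine breakdown (−0.44 ± 0.07), and the centrin gene Cetn4 (−0.89 ± 0.16) were lower beside it, and Bbs7, a subunit of the cilium cargo complex BBSome, was higher (0.56 ± 0.08). Exosc9 lost its call without DKK1 library 3, Mccc1 without wild-type library 2 or DKK1 library 1 or 2, and Cetn4 without wild-type library 2 or 3 or DKK1 library 1 or 3. In the chromosome 17 window Dynlt1a, a dynein light chain gene that overlaps the end of Tmem181a on the other strand, went from 48.5, 50.3 and 49.99 CPM to 22.98, 23.3 and 23.5 CPM (−1.09 ± 0.07). The use of strand in counting is not given in the sources used here, so the 2 cannot be fully told apart.

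The major histocompatibility complex (MHC), whose proteins present peptides to T cells, also lies on chromosome 17. Its called genes lie in the window from 30 to 40 Mb, which held 22 called genes of 224 tested (9.82%) and so missed the 10% limit. H2-Ea-ps, which encodes a class II alpha chain and is known to be silent in C57BL/6 mice (chr17:34342212-34344645), had 0 counts over the wild-type and 61 over the DKK1 libraries, at 1.03, 0.861 and 0.828 CPM, and was at least 22.1-fold higher. H2-T3, a non-classical class I gene, had 0 against 42 counts and was at least 15.2-fold higher. Other members fell. H2-T9 went from 27.8, 26.9 and 27.3 CPM to 11.5, 13.8 and 13 CPM (−1.10 ± 0.12, adjusted p = 0.00051). H2-T23, the gene of the class I molecule Qa-1, went from 32.9, 26.6 and 25.9 CPM to 14.2, 15.4 and 13.8 CPM (−0.98 ± 0.17), and H2-Bl fell by 2.68 ± 0.39. H2-DMb1, which helps load class II molecules, went from 2.74, 2.01 and 1.65 CPM to 0.343, 0.369 and 0.436 CPM (−2.46 ± 0.40). The pseudogene H2-K2 fell by 2.65 ± 0.32. The class I list had 1 of 25 tested members higher and 3 lower (median 0.0536), and the class II list 1 of 12 higher and 1 lower (median −1.04), against 0.88% of all genes called and a median of −0.00161.

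Other MHC genes did not pass, among them the classical genes H2-K1 and H2-Ab1 and their partners B2m and Cd74. In the class I list DESeq2 called 6 members, with H2-Q4 and H2-T22 beside the 4 that edgeR called. H2-K1 stood at 49.4, 28.6 and 30.4 CPM in wild-type and 34.0, 39.9 and 33.9 CPM in DKK1 libraries (−0.01 ± 0.19), and its partner B2m at 62.1, 49.3 and 46.7 CPM against 55.0, 54.4 and 53.2 CPM (0.04 ± 0.13). The class II gene H2-Ab1 stood at 8.25, 1.07 and 0.971 CPM against 2.35, 2.42 and 2.53 CPM, and the invariant chain gene Cd74 at 23.4, 2.78 and 5.32 CPM against 5.14, 5.002 and 2.79 CPM. Wild-type library 1 held most of the wild-type class II signal, with 72.8 CPM summed over the list against 23.7 and 28.8 CPM in the other wild-type and 32.5 to 36.3 CPM in the DKK1 libraries. H2-T23 lost its call when wild-type library 1 or 2 or any DKK1 library was left out, and H2-DMb1 when any DKK1 library was left out; limma-voom called neither. H2 genes are alike in sequence, and reads from another haplotype may align to other members than reads from C57BL/6, so the level of each single H2 gene is uncertain.

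The called genes were set beside the lesioned side, which shares no library with the intact side but may share animals with it. There 417 genes were called (2.37%), and 114 of the 155 intact-side genes were among them (73.5% of the intact and 27.3% of the lesioned calls), all 114 in the same direction. Of the 155, 149 had the same sign on both sides. Hprt fell by 2.45 on the lesioned side, Rps3a1 by 2.19, Ramac by 1.59 and Rnps1 by 1.51, and Tmem181c-ps rose by 6.26 and Arhgap8 by 4.85. The interaction of genotype and hemisphere passed in 1 gene (0.00568%), H2-T-ps, whose own intact-side difference did not pass. At an unadjusted p under 0.05 there were 1689 genes, limma-voom called 0 and DESeq2 65.

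**Figure D3:**
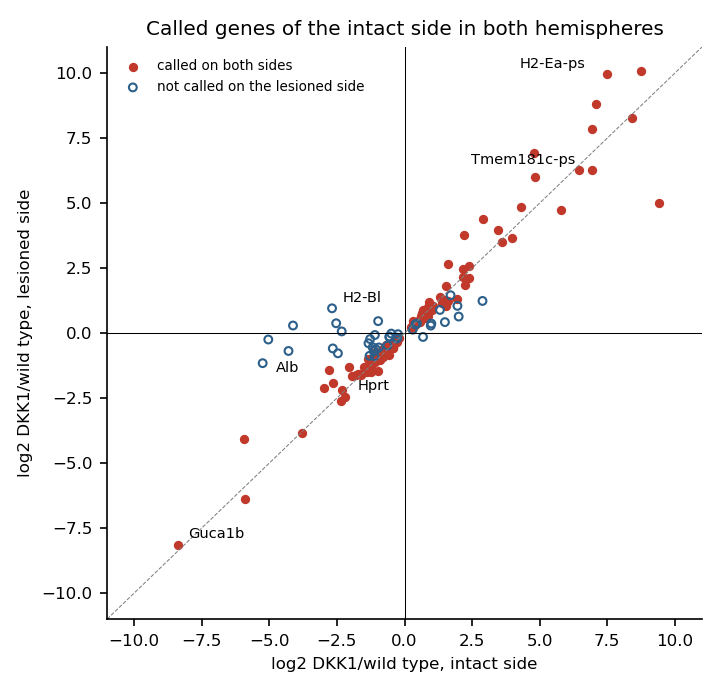
Log2 fold change of DKK1 against wild type on the intact side (x axis) and on the lesioned side (y axis) for the 155 genes called on the intact side, filled red where also called on the lesioned side (114 genes) and open blue where not (41 genes), with a dashed line of equal change. Most points lie along the line, and 6 genes have the opposite sign on the lesioned side. For genes with few or no counts in a group the plotted value depends on the fit and is not a bound.

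Deviations of same-numbered libraries correlated across the hemispheres, at 0.297 to 0.487 in wild type and 0.105 to 0.276 in DKK1. Between genotypes, where such libraries cannot share an animal, the correlation reached 0.257. The pairing of the DKK1 hemispheres is therefore not established, and the blocked results given here assume it. With the replicate number within each genotype as a block, the interaction passed in 288 genes instead of 1. Of the 155 genes called on the intact side 12 then differed between hemispheres. Among them were 5 MHC genes whose intact-side fall was smaller or of the opposite sign in the lesion: H2-T9 (blocked interaction 1.02 ± 0.10, adjusted p = 0.00281), H2-T23 (1.43 ± 0.12), H2-Bl (3.65 ± 0.43), H2-K2 (2.05 ± 0.29) and H2-DMb1 (1.72 ± 0.27). H2-T9 stood at means of 42.5 CPM in wild-type and 40.4 CPM in DKK1 lesions, against 27.4 and 12.8 CPM on the intact side. Treml2, a myeloid receptor gene, went from 0.975, 0.727 and 0.929 CPM to 0.294, 0.123 and 0.0436 CPM on the intact side (−2.53 ± 0.51) and differed in the blocked interaction by 2.90 ± 0.49. Its intact-side call was lost when any wild-type library or DKK1 library 2 or 3 was left out, and limma-voom did not call it (adjusted p = 0.491). Also among the 12 were Mbnl1, a splicing regulator (intact −0.56 ± 0.06, lesioned −0.13), Dnah6, a ciliary dynein (2.0 ± 0.29 and 0.63), Plekhd1 (0.68 ± 0.13 and −0.15), Msh5, and the liver genes Apoa1 and Serpina3k. The intact-side call of Plekhd1 was lost whichever library was left out.

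A group of liver genes was among the largest falls. Alb, the gene of serum albumin, stood at 87.8, 31.7 and 5.45 CPM in wild-type and 1.62, 2.50 and 2.22 CPM in DKK1 libraries (−4.29 ± 0.83, adjusted p = 0.0419). Apoa1, of high-density lipoprotein, stood at 22.8, 8.34 and 1.27 CPM against 0.392, 0.656 and 0.785 CPM (−4.12 ± 0.82, adjusted p = 0.0455). The genotypes did not overlap, but wild-type libraries 1 and 2 carried the difference and library 3 lay near the DKK1 libraries. Bhmt (−5.25 ± 1.01), Serpina3k (−5.04 ± 0.92) and the bile acid transporter gene Slc10a1 (−2.32 ± 0.46) had the same order. Of 27 tested genes of a liver list, written after these falls were seen, these 5 passed, beside 0.88% of all genes called, and 26 had a negative value. The summed level of the list was 471, 172 and 79.7 CPM in wild-type and 50.5, 79.2 and 70.8 CPM in DKK1 libraries. Of these sums Itih3, the 1 tested member with a positive value, made up 32.0, 26.6 and 41.6 CPM and 25.6, 52.5 and 45.2 CPM.

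The number of liver genes called turned on single libraries. It was 0 without DKK1 library 1, 2 or 3, 3 without wild-type library 1, 2 without wild-type library 2, and 26 of 30 without wild-type library 3; limma-voom called 0 and DESeq2 21. On the lesioned side none of the 27 was called. Brain cells are not known for making albumin, and where these reads came from was not tested. Without wild-type library 3 the calls over all genes numbered 197, of which 171 were not in the liver list, against 155 and 150 in the fit with all libraries.

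**Figure D4:**
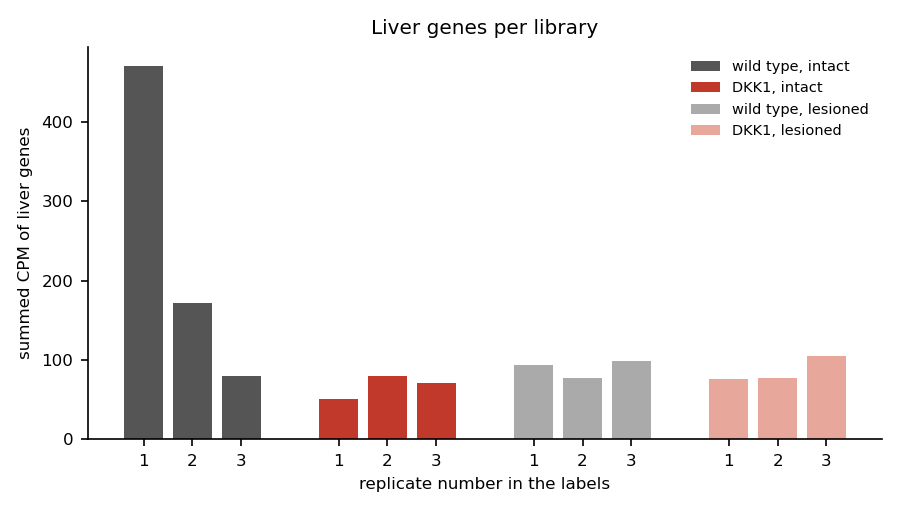
Summed CPM of the 30 listed liver genes in each of the 12 libraries (bars), by group and replicate number. Wild-type intact libraries 1 and 2 stand at 471 and 172, while all other libraries lie between 50.5 and 105. In those other libraries the single gene Itih3 makes up 25.6 to 74.6 CPM of the sum.

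Target genes of the pathway that DKK1 inhibits did not pass on the intact side. EdgeR, limma-voom and DESeq2 each called 0 of 21 tested targets, and 0 had an unadjusted edgeR p under 0.05. Their median was −0.133, with 14 negative and 7 positive values, against −0.00161 over all genes. Axin2, a feedback inhibitor and the most general target, stood at 47.7, 46.7 and 49.7 CPM in wild-type and 47.7, 40.8 and 41.3 CPM in DKK1 libraries (−0.15 ± 0.10), so the groups overlapped. Lef1 (−0.03 ± 0.13), Nkd1 (−0.14 ± 0.13), Lgr5 (−0.24 ± 0.15) and Apcdd1 (−0.18 ± 0.18) differed by less than 2 standard errors as well. Ligands, receptors and secreted modulators gave 0 of 53 with each of these tools, and 5 had an unadjusted edgeR p under 0.05. The smallest p among them was that of the ligand gene Wnt2, at 7.99, 8.85 and 9.08 CPM against 5.78, 4.76 and 6.10 CPM (−0.64 ± 0.19, adjusted p = 0.326). The receptors of DKK1 were level: Lrp6 stood at 90.5, 91.5 and 92.5 CPM against 95.7, 89.1 and 93.3 CPM (0.02 ± 0.06), Lrp5 differed by −0.03 ± 0.16 and Kremen1 by −0.04 ± 0.09. Of the Dickkopf family Dkk3 was at 257.04, 265.3 and 263.4 CPM against 256.2, 258.9 and 255.1 CPM (−0.03 ± 0.06). Other members of the Dickkopf and receptor list were less level but did not pass: Dkk2 (−0.39 ± 0.27), Dkkl1 (−0.20 ± 0.24) and Sostdc1 (0.57 ± 0.60). Dkk2 was called higher on the lesioned side (0.89, edgeR adjusted p = 0.0421).

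Endothelial genes held 1 call. Plvap, which forms the diaphragms of leaky capillaries and is low in brain vessels with a mature barrier (chromosome 8, 71497753 to 71511769), went from 14.6, 13.3 and 13.8 CPM to 24.3, 25.2 and 27.3 CPM (0.88 ± 0.13, adjusted p = 0.00461), without overlap between the genotypes. It also rose on the lesioned side (0.66). It was the 1 called of 19 tested genes of endothelial activation and leak, beside 0.88% of all genes called. Plvap lies in a 10 Mb window of chromosome 8 with 10 called genes of 130 tested (7.69%). Of 22 brain endothelial genes 0 passed (1 unadjusted, 0 with limma-voom, 0 with DESeq2; median −0.0856, 20 of 22 negative). Of 20 blood-brain barrier genes 0 passed (2 unadjusted, 0 by limma-voom, 0 by DESeq2; median −0.0935, 17 of 20 negative). Over all genes tested the median was −0.00161. The tight junction gene Cldn5 stood at 54.9, 58.5 and 54.0 CPM against 45.4, 51.8 and 49.4 CPM (−0.19 ± 0.07, edgeR adjusted p = 0.518).

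Lists for neurons, glia and infiltrating cells held no gene that edgeR called. Of 38 lists, which leave out the liver and skeletal muscle lists described above, 31 held no called gene. Over these 38 lists 13 of 675 distinct members were called (1.93%, against 0.88% of all genes tested), 4 higher and 9 lower. For 25 neuron and synapse genes 0 passed by edgeR, limma-voom or DESeq2 (0 unadjusted), with a median of 0.0394 and a range from −0.0924 to 0.14. Astrocytes (0 of 13, 2 unadjusted), oligodendrocytes and myelin (0 of 16, 0 unadjusted) and their precursors (0 of 12, 1 unadjusted) gave none by any of the 3 tools. Homeostatic microglia gave 0 of 13 (1 unadjusted, 0 by limma-voom), though DESeq2 called the microglial receptor gene Fcrls, at 30.8, 13.4 and 14.2 CPM against 7.15, 3.24 and 5.28 CPM. Reactive astrocyte genes gave 0 of 22 by edgeR (6 unadjusted, 0 by limma-voom), with values from −0.84 to 3.15, and DESeq2 called Ptx3, at 0.15, 0.0428 and 0 CPM against 0.441, 1.19 and 0.262 CPM. Disease-associated microglia gave 0 of 23 (3 unadjusted, 0 by either other tool) and T and NK cells 0 of 23 (1 unadjusted, 0 by either other tool). Complement genes gave 0 of 17 (2 unadjusted, 0 by either other tool). All 17 values were negative, with a median of −0.284. Their summed level was 435, 310 and 343 CPM in wild-type and 281, 314 and 297 CPM in DKK1 libraries, so DKK1 library 2 overlapped wild-type library 2, and wild-type library 1 was highest.

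Markers of deep brain regions were higher in some DKK1 libraries without passing. Thalamus and hypothalamus genes had a median of 0.489, with 17 of 20 positive and 0 called by edgeR (3 unadjusted, 0 by limma-voom, 1 by DESeq2). The hypothalamic neuropeptide gene Oxt stood at 0.338, 0.0428 and 0.844 CPM in wild-type and 3.04, 3.89 and 2.40 CPM in DKK1 libraries (adjusted p = 0.597), and Hcrt at 0.188, 0.214 and 2.11 CPM against 0.441, 6.52 and 25.8 CPM (adjusted p = 0.867). Hcrt spread widely and overlapped between the genotypes, and Oxt did not overlap. Hippocampal genes had a median of 0.276 (0 of 14 called, 4 unadjusted, 0 by limma-voom, 2 by DESeq2), and all 15 choroid plexus genes were positive with a median of 0.317 (0 called, 0 unadjusted, 0 by either other tool). The summed thalamic and hypothalamic level was 284, 247 and 363 CPM against 338, 408 and 429 CPM, so the groups overlapped. The summed choroid plexus level was 462.7, 303.8 and 437.2 CPM in wild-type and 424.0, 547.2 and 437.8 CPM in DKK1 libraries, and overlapped too. Wild-type library 2 was lowest and DKK1 library 2 highest. In bulk tissue a different share of a region or cell type and a different level per cell cannot be told apart.

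**Figure D5:**
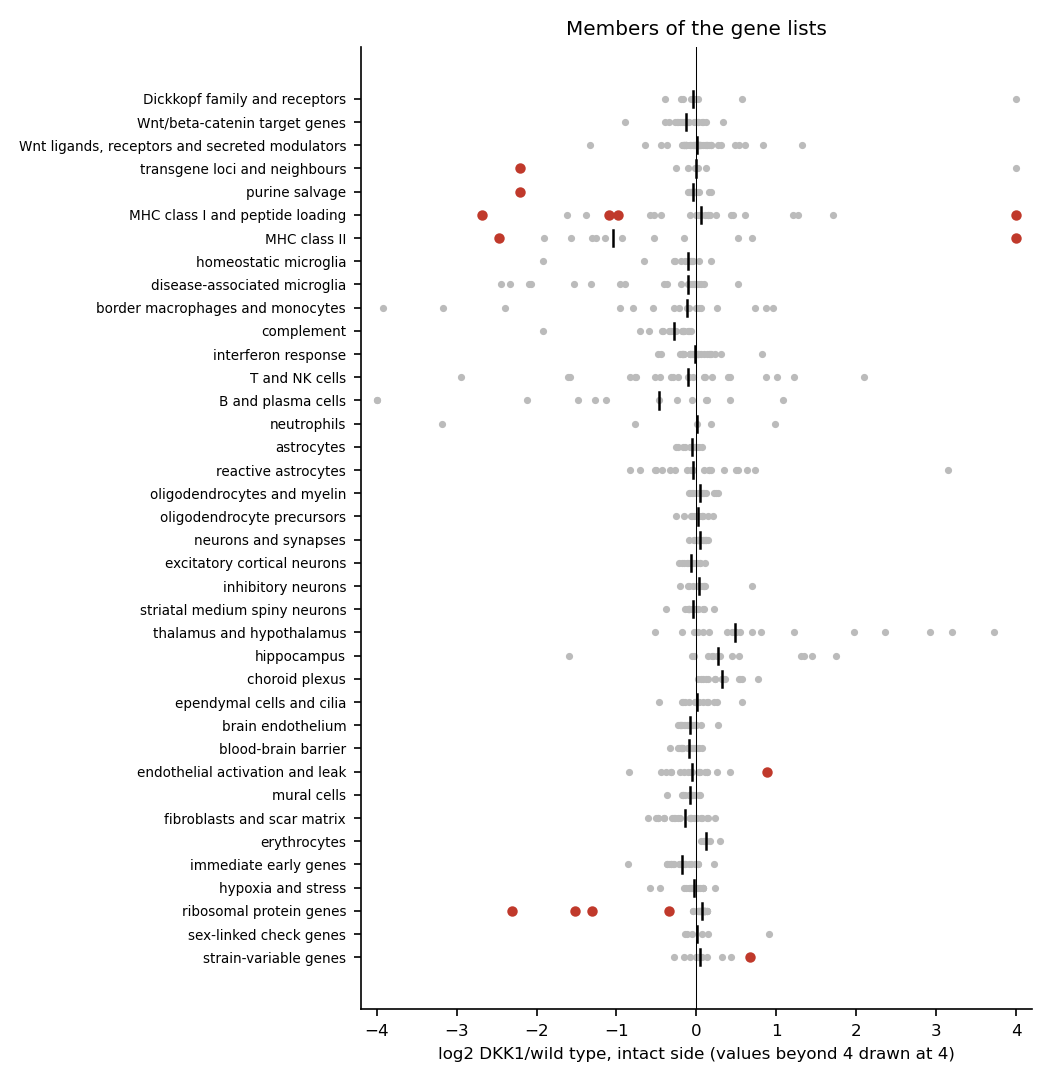
Log2 fold change on the intact side of every tested member of the 38 lists (points, 1 list per line), with called members in red, the list's median as a black bar, and values beyond 4 in size drawn at 4. Medians lie near 0 apart from MHC class II (−1.04), thalamus and hypothalamus (0.489), B and plasma cells (−0.468) and a few others, and red points appear in 7 lists.

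Nnt, the mitochondrial transhydrogenase gene of which C57BL/6J mice are known to carry a deletion, rose from 32.1, 31.6 and 29.8 CPM to 47.1, 50.1 and 52.0 CPM (0.67 ± 0.07, adjusted p = 0.000483), without overlap. It was the 1 of 12 tested strain-variable genes that was called, beside 0.88% of all genes tested. Others known to vary between strains, such as Wdfy1 (−0.08 ± 0.07), Kcnj9 (0.00086 ± 0.09) and Cap1 (0.07 ± 0.05), did not pass. Erdr1 stood at 8.82, 9.07 and 8.78 CPM against 11.6, 13.04 and 11.25 CPM and did not pass over all genes (0.43 ± 0.13, adjusted p = 0.334).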

How the data were processed

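RNA was sequenced from the intact and the lesioned hemisphere of DKK1 and wild-type mice (4 groups of 3 libraries, grouped by the labels). The authors deposited raw counts per RefSeq transcript, 1 for each of 25124 gene symbols, and TPM for the same libraries, per the file headers. STAR 2.7.0f, HOMER 4.11, DESeq2 and mm10 were used, per the submitters' processing notes; which step each served is not given in the sources used here. Positions come from the count table's own columns (mm10, counted from 1).

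Genes were kept by edgeR's filterByExpr (minimum count 10, by group), which left 17612, and scaled by TMM (factors 0.963 to 1.04). A robust quasi-likelihood model of all 12 libraries (edgeR 4.0.16, limma 3.58.1, R 4.3.3) gave two-sided tests with Benjamini-Hochberg adjustment over all genes tested. Adjusted p-values with no tool beside them come from edgeR. All tests rest on counts; deposited TPM served as an alternative, as did DESeq2 1.42.0, limma-voom, other scalings and filters, and leaving out each library.

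The genes and lists were chosen with earlier results of these data known; the liver and muscle lists were written after their values were seen. Genes were named by rule: members of the transgene, strain-variable and Dickkopf lists, the 15 largest called changes each way at 1 CPM or more without overlap, the 10 smallest p, up to 4 called genes per list or rich window; predicted models were left out. Genes without a call in other lists, those named for overlaps or for the blocked interaction, and Tmem181b-ps were chosen after their values were seen.

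Where a whole group had 0 counts, the fold was bounded by giving that group 3 counts, and with 1 to 3 counts an exact 95% (Clopper-Pearson) interval was put on the ratio. Reads had no molecular identifiers, so these cover counting error only. No pair of libraries of a group matched within sampling noise (chi-square per degree of freedom at least 3.95). Deviations from group means of same-numbered libraries correlated between hemispheres, at 0.487, 0.31 and 0.297 (wild type) and 0.276, 0.125 and 0.105 (DKK1). Between genotypes the correlations were 0.257, −0.062 and 0.096. The rule used (every pair over 0.1) pairs the hemispheres and does not pair the genotypes. The DKK1 values overlap those between genotypes, so the rule cannot establish the pairing of the DKK1 hemispheres. The block within each genotype takes that pairing as an assumption.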

Additional observations from a re-analysis of the deposited data

Results flagged for a closer look

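H2-T-ps, an MHC gene on chromosome 17 (36109030 to 36111676), differed between hemispheres in the interaction of genotype and hemisphere (edgeR, 2.63 ± 0.28, adjusted p = 0.0148). It stood at 1.91, 1.45 and 1.60 CPM in wild-type and 1.03, 1.11 and 0.916 CPM in DKK1 libraries on the intact side, and at 1.64, 1.74 and 2.17 CPM against 5.87, 7.67 and 7.57 CPM on the lesioned side. The intact-side difference did not pass (adjusted p = 0.298). Limma-voom did not call the interaction (adjusted p = 0.0616). In edgeR the call was lost when any 1 DKK1 library of the intact side was left out. It was also lost without wild-type library 2 or DKK1 library 2 or 3 of the lesioned side.

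H2-Bl was lower in all DKK1 libraries of the intact side (−2.68, called) and higher in all those of the lesioned side (0.951 on the log2 scale, not called), without overlap on either side. The interaction did not pass in edgeR without a block (3.63 ± 0.50, adjusted p = 0.101). It passed in edgeR with the replicate number within each genotype as a fixed block (adjusted p = 0.00600).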

How the results depend on the processing

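The 155 intact-side calls became 267 with DESeq2 and 111 to 168 under the other scalings, filters, limma-voom, TPM, the 6 intact libraries alone and the replicate block. With the number as a fixed block they were 168. With the number within each genotype as a random effect in limma-voom they were 132. Leaving out 1 library gave 94 to 197. The 417 lesioned-side calls became 1171 with DESeq2, 661 with limma-voom, 655 with the random replicate block and 119 to 2551 with 1 library left out. The 1 interaction call became 65 with DESeq2, 0 with limma-voom, 9, 8 and 11 with TPM and 0 to 393 with 1 library left out. It became 2 with the number as a fixed block. The number within each genotype gave 2 as a random effect in limma-voom and 288 as a fixed block in edgeR. The share of calls in rich windows went from 9.68% to 31.6% with 5 Mb windows, 61.9% with a minimum of 5%, 8.39% with 20 Mb windows and 5.81% with at least 8 called genes. List members called went from 13 to 21 with DESeq2, and the bound for the targeted gene ran from 4.67 to 9.87 with 1 library left out. The cause was not tested. The rule named 50 called genes, which leaves out those chosen after their values were seen. Of these, 34 kept their call under every alternative in which they were tested, and 16 lost it under at least 1. A gene that an alternative's filter removed was not counted as lost there. Of the values of the genes named by the rule, 0 reversed. Dkk1 and other genes of few counts are limited by depth.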

Other observations

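The called genes given here were chosen after their values were seen, and stand for no group. Fbxo5, an inhibitor of the anaphase-promoting complex, went from 1.73, 2.05 and 1.73 CPM to 5.34, 4.22 and 4.93 CPM (1.39 ± 0.20, adjusted p = 0.00461). Pkmyt1, a kinase that holds back mitosis, went from 17.3, 17.2 and 17.8 CPM to 9.5, 9.02 and 10.9 CPM (−0.83 ± 0.12), and the cyclin gene Ccna2 fell by 0.63 ± 0.13. Ccna2 lost its call when wild-type library 2 or 3 or any DKK1 library was left out.

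Pnpla3, a lipase of lipid droplets, went from 27.2, 23.1 and 22.97 CPM to 9.99, 11.6 and 9.68 CPM (−1.22 ± 0.12, adjusted p = 0.000151). The phospholipase gene Pla2g6 rose by 0.65 ± 0.08. Cers1, a ceramide synthase of neurons, fell by 0.38 ± 0.05 and overlaps Gdf1 on the same strand. The somatostatin receptor gene Sstr5 rose by 1.96 ± 0.32, a call lost without wild-type library 1 or 2 or DKK1 library 3. The scaffold gene Magi1 rose by 0.51 ± 0.08. The imprinted non-coding RNA Rian fell by 0.45 ± 0.07, a call lost without DKK1 library 2.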
